A study of Ovis aries with 14 samples.

Results

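The cell division genes of the sheep ovary were followed by name through 3 deposited RNA-seq tables. A gene was taken when its name was an MCM, a cyclin of the A, B, D or E type, a numbered CDK or CDC gene, an E2F factor, an AURK, a PLK from 1 to 4, a BUB or a CENP, or was MKI67, TOP2A or PCNA. This gave 87 of 17323 genes: 87 of 16513 in the fetal table, 85 of 15863 in the first adult table and 86 of 16074 in the second. CDC20B was listed in the fetal table and in neither adult table, CDK15 was missing from the first adult table, and 85 members were in all 3. MKI67, MCM2, CCND1, CCNB1, E2F1, CENPA and CENPE were not listed by name and were not analysed here.

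All animals were wild type Suffolk sheep, and every library was made from a whole frozen ovary. Testosterone propionate was injected into the muscle of pregnant ewes from day 30 to day 90 of gestation, and the ovaries of their offspring were compared with those of animals labelled control. The groups were 3 control and 3 testosterone fetuses at day 90, numbered 1 to 3, and 4 control and 4 testosterone adults at year 2, numbered 4 to 7. These adult numbers are those of the sample labels; the design text of the series counts 3 adult controls and 4 treated adults, and each adult table holds 3 of each. The labels do not state how animals relate to mothers or litters, so the p-values cover no more than the variation among the animals sampled.

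Cells divide by copying their DNA once and then parting the copies. MCM proteins form the helicase that opens DNA at replication origins, cyclins switch the CDK kinases on in a set order, and E2F factors drive transcription of genes used in DNA synthesis. CENP proteins build the kinetochore on which spindle fibres pull, BUB proteins delay the parting of chromosomes until all are attached, and the Aurora and Polo-like kinases direct the spindle. In the ovary these genes serve the mitosis of germ cells, granulosa cells and stroma, while several also act in the meiosis of oocytes.

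Levels are given as RPM, the reads of a gene per 1000000 reads of its library, computed from the read numbers behind the deposited values. The reads of a library are those summed over the genes listed in its table, 16513 in the fetal table and 15863 or 16074 in the adult ones. Each gene is compared only with itself. Libraries held between 22.6 and 33.4 M such reads. In lists of 4 numbers the adult libraries stand in the order 4, 5, 6 and 7, and in lists of 3 the fetal libraries stand in the order 1, 2 and 3. Ovarian markers were present in every library: the 12 listed granulosa cell markers summed to 964 to 2949, and of the 5 listed oocyte markers only BMP15 was at 0, in adult control 4. Several libraries stood apart. Fetal control 3 and fetal testosterone 3 had the highest summed oocyte markers. Adult control 4 had the highest summed smooth muscle markers, at 26819 RPM against 2695 to 9949 in the other adult libraries. Adult control 6, testosterone 4 and testosterone 7 held OXT, the luteal oxytocin gene, chosen after its values were seen, at 2334 to 4047 RPM, while the other 5 adult libraries held 0.916 to 3.17. Adult control 6 also had a larger set of reads in the second adult table than in the first, and the larger set was used for its level.

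As a group, cell division genes were higher in the fetal than in the adult ovary by the median under both scalings tried, with 13 members that turned between them. Of 85 members, 40 had every one of the 6 fetal libraries above every one of the 8 adult libraries, which is 47.1%, against 20.8% of all genes in the 3 tables. No member had every fetal library below every adult library, against 5.58% of all genes. Leaving out a library can only keep or raise the count of 40. With each left out in turn it ran from 40 to 49, the highest without adult control 7. No share of all genes was set beside these counts. The median log2 ratio of fetal over adult mean was 0.73 for members and 0.22 for all genes. Of the members, 35 were listed as periodic, with transcripts that rise and fall over the cell cycle. Among these 21 had all fetal libraries higher and the median was 1.25, while among the other 50 there were 19 and the median was 0.47. By role, 12 of 15 centromere and kinetochore genes and 7 of 10 replication genes were so separated, or 9 and 6 with the other scaling described next. These are descriptions without a test, because the fetal and adult tables were separately normalized and age and table cannot be told apart.

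The size of the gap depended on the scaling. With median-ratio size factors over the 14 libraries the all-gene median moved by -0.30, to -0.089, and the member medians became 0.44 for all, 0.99 for the periodic genes and 0.20 for the others. Under that scaling 22 of 85 members had all fetal libraries higher, against 12.2% of all genes. Again none had all lower, but no share of all genes was set beside that count. Each count by role given below stands against 20.8% of all genes in RPM and 12.2% with this scaling. The direction of the mean ratio changed for 13 members: AURKAIP1, AURKB, CCND2, CDC123, CDC23, CDC37, CDC5L, CDK19, CDK3, CDK4, E2F4, E2F5 and MCM7. In whole ovaries, fewer cells of a type and less RNA per cell cannot be told apart. The makeup of the tissue moved with age too: the summed germ cell and meiosis markers were 686 to 1462 RPM in the fetus, with 22 of 28 listed, and 30.3 to 247 in the adult, with 11 to 13 listed in a table. Summed smooth muscle markers were 1867 to 3456 in the fetus and 2695 to 26819 in the adult. Their part in the difference was not tested.

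**Figure D1:**
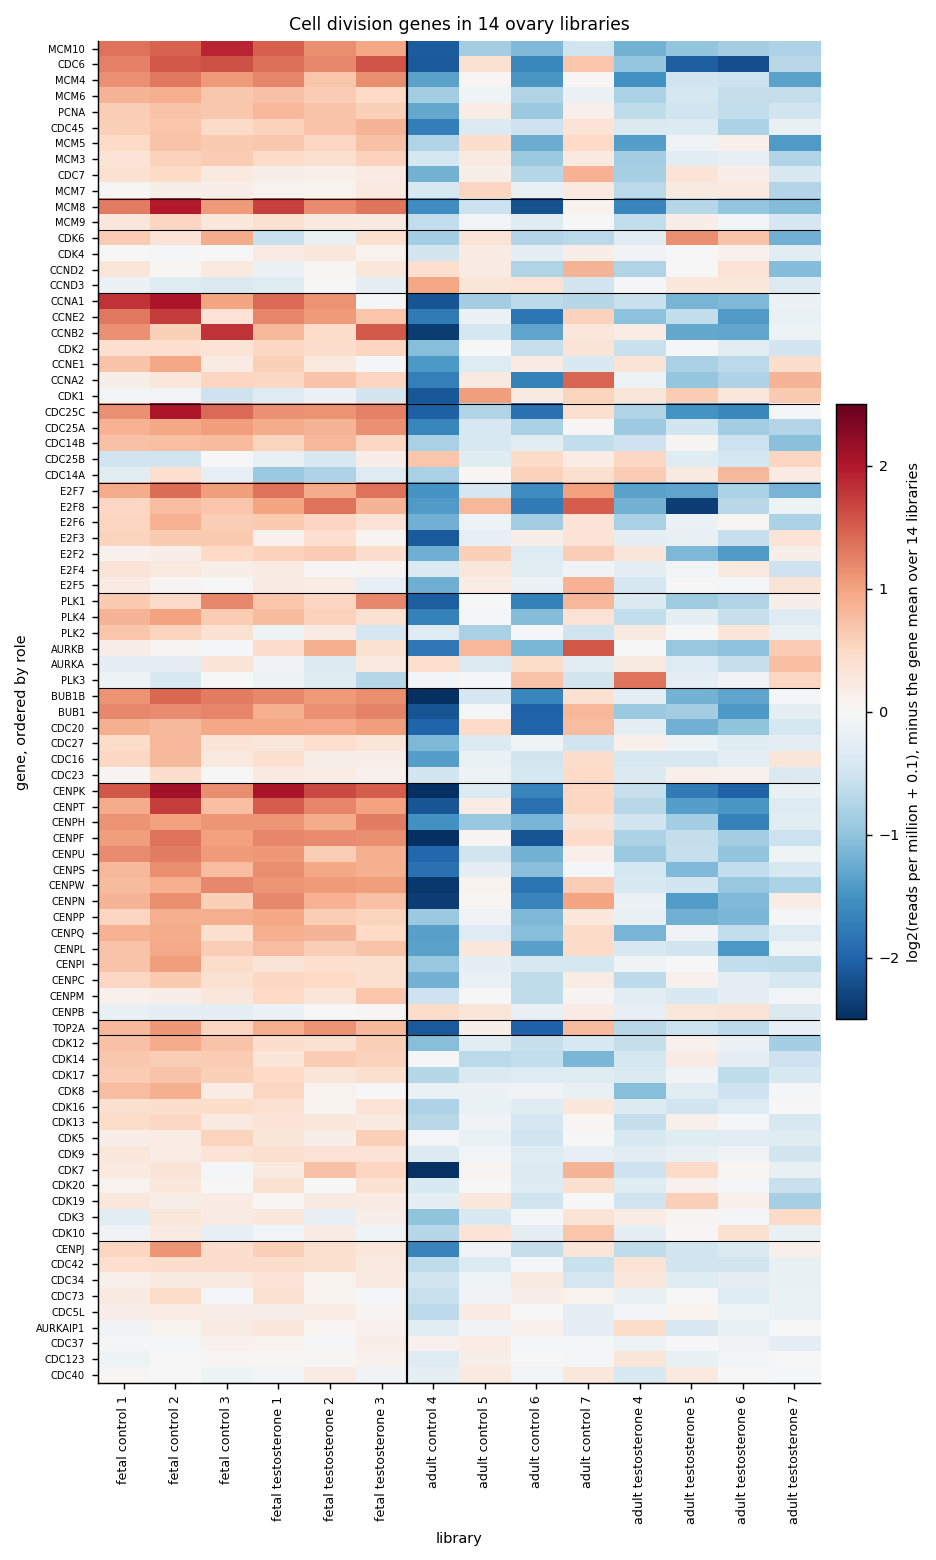
Level of 85 cell division genes in 14 ovary libraries, as log2 of RPM plus 0.1 after subtracting the mean of each gene; columns are libraries, rows are genes grouped by role, red is above and blue below the gene mean. Most replication and centromere rows are red in the 6 fetal columns, and adult control 4, the lowest adult library for 50 of 85 genes, holds much of the deepest blue.

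Among the 10 genes of origin licensing and the replication fork, 7 had all fetal libraries above all adult ones (6 with the other scaling), and the median log2 ratio was 1.10. MCM10, which helps the helicase start to unwind DNA, had 59.2, 63.4 and 86.2 in the fetal controls and 64.3, 51.4 and 44.97 in the testosterone fetuses, and 5.37, 12.6, 10.6 and 16.1 in the adult controls and 10.1, 11.6, 12.4 and 13.3 in the testosterone adults. The lowest fetal library thus stood well above the highest adult one, and the means were 61.6 ± 14.2 in the fetus against 11.5 ± 3.10 in the adult (SD over both treatments, n = 6 and 8), a ratio of 5.36. CDC6, which loads the MCM ring on origins, had 10.1, 12.4 and 12.6 in the fetal controls and 10.8, 9.68 and 12.5 in the testosterone fetuses, and 0.889, 5.41, 1.29 and 6.78 in the adult controls and 2.06, 0.916, 0.812 and 2.53 in the testosterone adults, a ratio of 4.39. MCM4 followed with 155 ± 21.4 against 44.5 ± 20.8, and MCM6 with 139 ± 14.5 against 59.1 ± 12.1; both are subunits of the helicase ring.

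PCNA, the sliding clamp of DNA polymerases, had 92.9, 99.8 and 96.9 in the fetal controls and 108, 99.2 and 92.1 in the testosterone fetuses, and 24.9, 69.03, 31.7 and 66.4 in the adult controls and 39.04, 42.7, 39.4 and 42.9 in the testosterone adults. No adult library reached the lowest fetal value, and the ratio of means was 2.21. CDC45, a partner of MCM in the moving helicase, had a ratio of 2.09, and MCM3, another ring subunit, of 1.76. MCM5, also of the ring, had 93.5, 109 and 105 in the fetal controls and 106, 94.8 and 111 in the testosterone fetuses, and 39.6, 90.5, 28.3 and 94.6 in the adult controls and 25.5, 62.9, 72.3 and 24.9 in the testosterone adults. Adult control 7 passed the lowest fetal library there, so the ages overlapped. CDC7, the kinase that fires origins, ranged from 32.8 to 42.6 in the fetus and from 13.2 to 55.3 in the adult. MCM7 ranged from 256 to 296 and 151 to 362, and its mean ratio of 1.11 fell below 1 under the other scaling.

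The helicase subunits MCM8 and MCM9 act in repair by recombination, and in mice loss of either one depletes germ cells. MCM8 had 13.8, 22.1 and 11.7 in the fetal controls and 18.3, 12.7 and 14.03 in the testosterone fetuses, and 1.81, 3.76, 1.14 and 5.85 in the adult controls and 1.72, 3.32, 2.77 and 2.53 in the testosterone adults. Every fetal library was at least as high as 11.7 while no adult library passed 5.85, and the ratio of means was 5.39. MCM9 differed less, with 48.2 ± 4.24 against 33.1 ± 6.62 and a ratio of 1.45, and its libraries did not overlap in RPM but did with the other scaling.

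**Figure D2:**
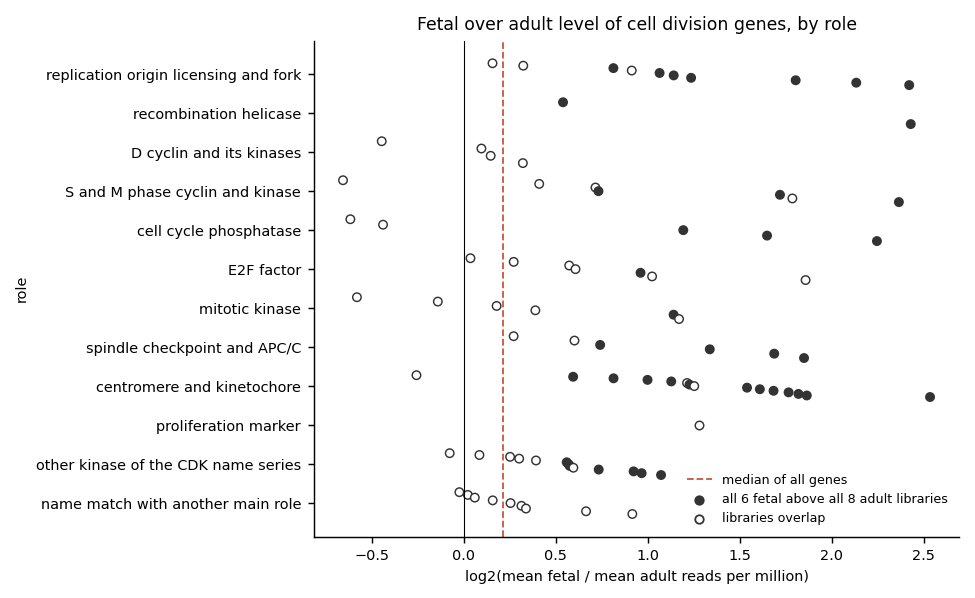
Log2 of mean fetal over mean adult RPM for 85 cell division genes, by role; filled points are genes with all 6 fetal libraries above all 8 adult libraries, and the dashed line is the median of all genes at 0.22. Filled points make up 12 of 15 centromere and kinetochore genes and 7 of 10 replication genes, and none of the D cyclins with their kinases.

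D-type cyclins and their kinases, which carry growth signals into G1 phase, showed no such separation: 0 of 4 had all fetal libraries higher. CCND2, the D cyclin of granulosa cells in mice, had 53.3, 44.99 and 51.6 in the fetal controls and 38.9, 44.6 and 52.4 in the testosterone fetuses, and 57.8, 50.1, 25.7 and 78.3 in the adult controls and 25.5, 42.8, 55.9 and 20.4 in the testosterone adults. The adult libraries lay on both sides of the fetal ones, and the direction of the mean turned with the scaling. CCND3, another D cyclin, was 34.5 ± 3.30 in the fetus against 46.9 ± 15.4 in the adult, the adult mean being 1.36 times the fetal one. CDK4 ranged from 169.9 to 212 in the fetus and 127 to 201 in the adult, with the direction again set by the scaling. CDK6 was low at both ages, from 3.00 to 8.60 and from 1.89 to 10.04.

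Cyclins and kinases of S and M phase were mixed, with 3 of 7 separated in RPM and 0 of 7 with the other scaling. CCNA1, the A-type cyclin that in mice is needed for male meiosis, had 4.28, 5.02 and 2.38 in the fetal controls and 3.23, 2.60 and 1.13 in the testosterone fetuses, and 0.178, 0.578, 0.688 and 0.664 in the adult controls and 0.749, 0.458, 0.480 and 1.03 in the testosterone adults. Fetal testosterone 3 was the lowest fetal library and lay just above the highest adult one, and the ratio of means was 5.15. CCNB2, a B-type cyclin of mitosis, had 32.7 ± 12.5 against 9.92 ± 5.62, and CDK2, the kinase of cyclins E and A, 21.7 ± 1.14 against 13.05 ± 3.85. CCNA2, the A cyclin of dividing somatic cells, had 9.06, 10.01 and 11.9 in the fetal controls and 11.7, 13.5 and 11.8 in the testosterone fetuses, and 2.42, 9.58, 2.45 and 22.6 in the adult controls and 7.41, 4.12, 4.76 and 14.8 in the testosterone adults, so that adult control 7 and testosterone 7 exceeded every fetal library. CCNE1, which opens S phase, had 5.41 ± 1.45 against 3.30 ± 1.40 and overlapped, as did CCNE2 with 4.37 ± 1.49 against 1.27 ± 0.835.

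CDK1, the kinase that drives entry into mitosis, went the other way. Its level was 14.8, 14.8 and 10.9 in the fetal controls and 12.4, 14.1 and 11.2 in the testosterone fetuses, and 3.49, 32.3, 18.3 and 22.9 in the adult controls and 19.2, 24.4, 19.04 and 24.7 in the testosterone adults. In 7 of 8 adult libraries CDK1 was above every fetal library, and adult control 4 alone lay below them all. The adult mean was 1.58 times the fetal one, 20.6 ± 8.26 against 13.04 ± 1.77, the highest such ratio among the members with a mean of at least 10 normalized counts.

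Of the 5 phosphatases, which remove phosphate from CDKs or from their targets, 3 had all fetal libraries higher under both scalings. CDC25C had 5.03, 9.35 and 6.11 in the fetal controls and 5.03, 4.98 and 5.43 in the testosterone fetuses, and 0.462, 1.28, 0.539 and 2.97 in the adult controls and 1.27, 0.725, 0.664 and 2.19 in the testosterone adults, a ratio of 4.74. CDC25A was 15.2 ± 1.21 in the fetus against 4.86 ± 1.60 in the adult, and CDC14B 38.5 ± 3.39 against 16.8 ± 4.02. CDC25B, whose mouse form is needed for oocytes to resume meiosis, had the opposite order of means, 27.8 ± 5.42 against 37.7 ± 11.2, and CDC14A likewise, 8.37 ± 2.95 against 12.8 ± 3.76; both overlapped between ages.

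E2F factors were separated in 1 of 7 cases in RPM, E2F6, which is 14.3% against 20.8% of all genes, and in 0 with the other scaling. E2F6, a repressor, was 21.2 ± 2.46 in the fetus against 10.9 ± 4.11 in the adult. E2F7 and E2F8, repressors that rise late in S phase, had ratios of 3.62 and 2.03, and for both adult control 7 lay within or above the fetal range. E2F8 had 3.12, 3.78 and 3.55 in the fetal controls and 4.39, 5.70 and 3.98 in the testosterone fetuses, and 0.747, 3.92, 0.569 and 6.33 in the adult controls and 0.898, 0.343, 1.29 and 1.97 in the testosterone adults. E2F3, an activator, had a ratio of 1.52, and E2F2, another activator, of 1.49 at levels of at most 1.53. For E2F4 and E2F5, which repress with pocket proteins, the direction turned with the scaling.

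Among 6 mitotic kinases only PLK4, the kinase of centriole duplication, was separated in RPM, which is 16.7% against 20.8% of all genes. PLK4 had 33.7 ± 5.06 against 15.3 ± 6.18, and with the other scaling 0 of 6 kinases were separated. PLK1, which acts from mitotic entry to cytokinesis, had 33.5, 29.7 and 49.1 in the fetal controls and 34.5, 30.8 and 49.1 in the testosterone fetuses, and 5.02, 21.2, 6.49 and 37.6 in the adult controls and 16.5, 11.3, 12.6 and 23.5 in the testosterone adults. Adult control 7 alone reached into the fetal range. AURKA, the Aurora kinase of spindle poles, had 121, 123 and 179 in the fetal controls and 135, 114 and 170.3 in the testosterone fetuses, and 191, 114, 196 and 119 in the adult controls and 167, 115, 95.5 and 241 in the testosterone adults, and neither age was consistently higher. AURKB, the Aurora kinase of the centromere, ranged from 6.15 to 11.9 in the fetus and 1.78 to 18.9 in the adult. PLK2 was 117 ± 32.1 in the fetus against 89.7 ± 21.8 in the adult and overlapped. PLK3, a stress-responsive relative of PLK2, was 12.3 ± 2.09 in the fetus against 18.4 ± 8.78 in the adult.

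The spindle checkpoint and the APC/C, the ubiquitin ligase that the checkpoint holds back, had 4 of 6 members separated in RPM, and 1 of 6, BUB1B, with the other scaling. BUB1B, which encodes the checkpoint kinase BUBR1, had 42.9, 53.7 and 47.9 in the fetal controls and 45.1, 41.4 and 43.9 in the testosterone fetuses, and 2.70, 14.7, 6.25 and 25.7 in the adult controls and 16.7, 8.66, 7.79 and 19.2 in the testosterone adults, a ratio of 3.60. BUB1, its relative at the kinetochore, was 35.1 ± 2.94 in the fetus against 10.9 ± 8.20 in the adult, and CDC20, the activator of the APC/C, 39.1 ± 2.15 against 15.5 ± 10.9. CDC27, an APC/C subunit, was separated with a ratio of 1.67. The subunits CDC16 and CDC23 overlapped, with ratios of 1.52 and 1.21, and the latter turned with the scaling.

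Centromere and kinetochore genes formed the largest group, and 12 of 15 had all fetal libraries higher, or 9 of 15 with the other scaling. CENPK, a subunit of the inner kinetochore, had 9.81, 14.5 and 7.51 in the fetal controls and 13.9, 10.5 and 9.55 in the testosterone fetuses, and 0.107, 2.56, 0.988 and 4.74 in the adult controls and 2.17, 0.916, 0.738 and 2.92 in the testosterone adults. Adult control 4 held only 3 reads of it. The means were 10.96 ± 2.71 in the fetus against 1.89 ± 1.51 in the adult, and the ratio of 5.79 was the highest among members. CENPF, a large protein of the outer kinetochore, had 76.99, 96.1 and 75.8 in the fetal controls and 86.6, 85.04 and 83.5 in the testosterone fetuses, and 6.01, 39.1, 8.29 and 51.9 in the adult controls and 21.6, 24.7, 20.3 and 25.8 in the testosterone adults. Adult controls 5 and 7 came nearest to the fetal range without entering it. The other separated members, CENPT, CENPH, CENPU, CENPS, CENPW, CENPP, CENPL, CENPI, CENPC and CENPM, all of the inner kinetochore, had ratios from 1.51 to 3.64. CENPN and CENPQ overlapped through adult control 7, with ratios of 2.38 and 2.32. CENPB, which binds satellite DNA, had a higher adult mean, 109 ± 8.95 against 131 ± 26.3.

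TOP2A, the topoisomerase that untangles sister chromatids, had 108, 132 and 90.05 in the fetal controls and 115, 136 and 108 in the testosterone fetuses, and 14.3, 68.6, 15.3 and 107 in the adult controls and 38.1, 42.7, 39.2 and 53.4 in the testosterone adults. Adult control 7 lay inside the fetal range, so TOP2A was not counted as separated although its ratio was 2.43. The 13 measured kinases of the CDK name series with other roles had 7 separated in RPM, and with the other scaling 2, CDK12 and CDK17, a share of 15.4% against 12.2% of all genes. CDK12, a kinase of RNA polymerase II, had 86.6 ± 12.4 against 41.2 ± 10.8, and CDK14, a partner of membrane-bound cyclin Y, 30.7 ± 2.69 against 15.7 ± 4.48. CDK17, CDK8, CDK13, CDK5 and CDK9 had ratios from 1.47 to 1.90. CDK7, which activates other CDKs and serves in TFIIH, ranged from 40.03 to 67.2 in the fetus and from 7.29 to 73.5 in the adult. CDK16, CDK20, CDK19, CDK3 and CDK10 overlapped too, with ratios from 0.948 to 1.51, and those of CDK19 and CDK3 fell below 1 with the other scaling. CDK15, with fetal levels of 0.282 to 0.662, was not measured in all adult libraries and was not compared.

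The name rule also took 10 genes whose main role lies elsewhere, of which 9 were in all tables and 0 were separated. They include CDC42, a GTPase of cell shape, CDC37, a chaperone of kinases, CDC40 and CDC5L of splicing, CDC73 of transcript elongation, CDC34, a ubiquitin-conjugating enzyme, CDC123 of translation initiation, AURKAIP1, named for binding Aurora kinase, and CENPJ of centrioles. Their median log2 ratio was 0.25, next to 0.22 for all genes. Also, 3 lists from outside the family gave the background of the pathway. Of 47 listed genes of G1 and S phase, 32 had all fetal libraries higher (27 with the other scaling), and of 54 genes of G2 and M phase, 33 (28 with the other scaling). The share of all genes was 20.8%, or 12.2% with the other scaling. Of 16 CDK inhibitors, pocket proteins and related brakes, 7 were higher in all fetal libraries and 2 in all adult ones. With the other scaling these were 5 and 2. In RPM 5.58% of all genes were higher in all adult libraries, and no such share was set beside the count of 2 with the other scaling. CDKN2C, an inhibitor of CDK4 and CDK6 and chosen after its values were seen, had 6.69, 7.48 and 6.41 in the fetal controls and 7.99, 9.42 and 7.51 in the testosterone fetuses, and 28.7, 22.9, 17.7 and 23.96 in the adult controls and 20.6, 19.04, 18.7 and 15.5 in the testosterone adults.

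In the fetal ovary no cell division gene passed the main test of testosterone against control. With limma on log2 of the normalized count plus 1, 0 of 87 members passed an adjusted p of 0.05, against 0.0182% of all genes, and the smallest adjusted p of a member was 0.292. At an unadjusted p under 0.05 there were 4 members higher and 5 lower, against 9.76% of all genes in either direction. edgeR called 0 members against 0.0242% of all genes, and DESeq2 called 1 lower against 1.58% of all genes. The authors' deposited table called 1 of 85 members with an adjusted p, against 262 of 14905 genes. The member changes were balanced, with 43 above and 44 below 0 and a median log2 change of -0.0045, against -0.019 for all genes. Control and testosterone libraries did not overlap for 15 members, 7 higher and 8 lower, which is 17.2% against 16.3% of all genes.

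The member called by DESeq2 was PLK2, a Polo-like kinase induced by growth factors and stress. Its normalized counts were 4067, 3591 and 3377 in controls 1, 2 and 3 and 2335, 3001 and 1969 in testosterone 1, 2 and 3, so all testosterone fetuses lay below all controls. The means were 3678 ± 353 and 2435 ± 524 (SD, n = 3), a log2 change of -0.61 with an SE of 0.15. The limma adjusted p was 0.292 and the DESeq2 adjusted p was 0.0319, and over all settings tried the adjusted p ran from 0.0319 to 0.726. In the authors' deposited table the adjusted p of PLK2 was 0.0299.

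AURKB had the smallest p among members with a higher mean. It had 185, 167 and 163 in controls 1, 2 and 3 and 227, 314 and 222 in testosterone 1, 2 and 3, with no overlap, and means of 172 ± 11.6 and 254 ± 51.7 (log2 change 0.55, SE 0.18, limma adjusted p = 0.417). CDK4 had 4438, 4269 and 4645 in controls 1, 2 and 3 and 5240.2, 5607 and 4927 in testosterone 1, 2 and 3, also with no overlap, and a log2 change of 0.24 (SE 0.083, limma adjusted p = 0.432). Its sister kinase CDK6 had the opposite sign, with 178, 143 and 228 in controls 1, 2 and 3 and 78.4, 104 and 158 in testosterone 1, 2 and 3, and testosterone 3 reached above control 2. The log2 change of CDK6 was -0.72 (SE 0.29, limma adjusted p = 0.480). The other members that the naming rule picked for a higher mean were CENPB, CDK7 and CENPM, with log2 changes of 0.22, 0.35 and 0.35. Those picked for a lower mean were CDK12, CDC14A and E2F3, with -0.29, -0.63 and -0.39, and none of the 6 passed.

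Genes that mark dividing cells did not pass either. TOP2A had 2773, 3315 and 2386 in controls 1, 2 and 3 and 3014, 3587 and 2906 in testosterone 1, 2 and 3 (log2 change 0.17, SE 0.14), and PCNA had 2388, 2507 and 2567 in controls 1, 2 and 3 and 2823, 2626 and 2468 in testosterone 1, 2 and 3 (log2 change 0.084, SE 0.087). In both cases the groups overlapped. MCM5 had a log2 change of 0.055 (SE 0.10), CDK1 of -0.055 (SE 0.16), CCNA2 of 0.30 (SE 0.16), CCNE1 of -0.34 (SE 0.25) and CDK2 of 0.15 (SE 0.11). For the mitotic genes the values were 0.070 for PLK1, 0.029 for AURKA, -0.074 for BUB1, 0.14 for CDC20 and 0.082 for CENPF, and for the D cyclins -0.11 for CCND2 and 0.13 for CCND3. CDC20B, which was listed in the fetal table alone, had 30.99, 34.2 and 31.98 in controls 1, 2 and 3 and 25.5, 25.3 and 20.8 in testosterone 1, 2 and 3, with a log2 change of -0.43 (limma adjusted p = 0.647). The median SE of a member in this table was 0.14 on the log2 scale.

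**Figure D3:**
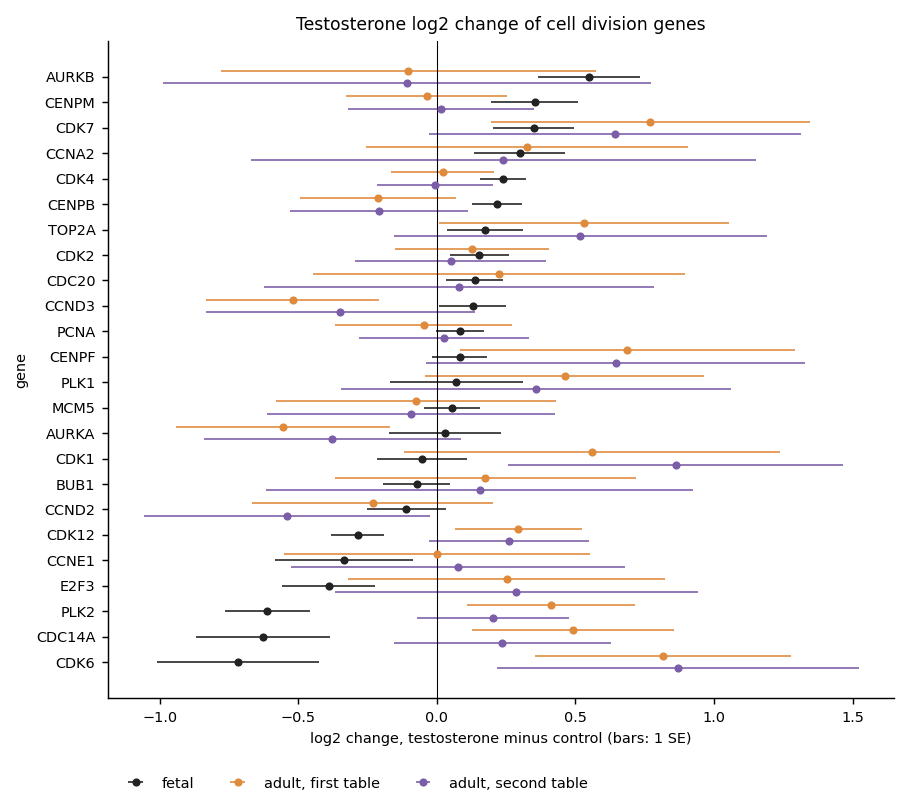
Log2 change, testosterone minus control, with 1 SE, for 24 named cell division genes in the fetal table and in both adult tables, which share libraries. Fetal changes lie between -0.72 and 0.55, no change passed the test with limma, and the adult bars are longer than the fetal ones.

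In the adult ovary no cell division gene passed either. In the first adult table, 0 of 85 members passed with limma, against 0.00631% of all genes, and 0 reached an unadjusted p under 0.05, against 0.637%. The second table likewise gave 0 of 86, against 0.00623%, and 0 at an unadjusted p under 0.05, against 0.486%. DESeq2 called 0 members in both tables, against 0.0252% and 0.0311% of all genes, and edgeR called 0 members and 0 genes in all. The authors' deposited tables called 0 members, against 4 of 15545 and 5 of 15742 genes. The tables share 4 of their 6 libraries and are not independent. When the 8 adult libraries were joined through their reads, 0 of 85 members passed, against 0.0127% of all genes. Group ranges did not overlap for 3 of 85 members in the first table, against 3.57% of all genes, and for 0 of 86 in the second, against 2.61%.

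The spread between adult ovaries was wide. The median SE of a member was 0.36 in the first table and 0.44 in the second, and the median log2 change of members was 0.078 and 0.048; with DESeq2 the latter became -0.044. CDK8, a kinase of the Mediator complex, had 616, 468 and 513 in controls 4, 5 and 6 and 273, 423 and 367 in testosterone 4, 5 and 6 in the first table, with no overlap, a log2 change of -0.60 (SE 0.27) and a limma adjusted p of 0.9999. In the second table its log2 change was -0.24, with overlap. CCND3 and CDC37 were the other members without overlap in the first table, with log2 changes of -0.52 and -0.31, and in the normalized counts of that table control 4 was the highest library for both. In RPM control 5 was the highest for CDC37.

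CDK6 had 79.7, 138 and 72.7 in controls 4, 5 and 6 and 98.7, 240.3 and 186 in testosterone 4, 5 and 6 in the first table and 80.7, 72.2 and 65.3 in controls 4, 6 and 7 and 248, 189 and 50.1 in testosterone 5, 6 and 7 in the second. Testosterone 5 and 6 were the highest in both, and testosterone 7 was below every control, giving log2 changes of 0.82 (SE 0.46) and 0.87 (SE 0.65). CDK1 had a log2 change of 0.86 (SE 0.60) in the second table, where control 4 was at 116 and the other 5 libraries at 486 to 657. CENPF and CDK7 had 0.65 and 0.64 there, and CDK12 had 0.26. The members of smallest p with a lower mean were CDC25B, CCND2, CDC37, CDK5 and CDC6, with log2 changes of -0.66, -0.54, -0.25, -0.25 and -0.79. In the first table CDK3, PLK2, CDC14A and CDK7 had 0.40, 0.41, 0.49 and 0.77, and AURKA and CDC25B had -0.56 and -0.51. The limma adjusted p ran from 0.9998 to 0.9999 for these.

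The change with testosterone was compared between ages as the first adult table minus the fetal table. No member passed, 0 of 85 against 0.00657% of all genes, and the smallest adjusted p was 0.999. At an unadjusted p under 0.05 there were 4 members, PLK2, CDK6, CDC14A and CDK12, against 2.25% of all genes. All 4 had a lower mean with testosterone in the fetus and a higher mean in the adult, and their differences were 1.02 (SE 0.34), 1.53 (SE 0.55), 1.12 (SE 0.44) and 0.58 (SE 0.25). With the second adult table in its place 1 of 86 members was under that p, against 223 of 15298 genes. With the 8 joined libraries 2 of 85 were, against 369 of 15163 genes. Genes of the pathway outside the family were tested in the same fits: 0 of 47 for G1 and S phase, 0 of 54 for G2 and M phase and 0 of 16 inhibitors and pocket proteins passed in any of the 3 tables. The smallest fetal adjusted p in these lists were 0.533, 0.509 and 0.578 with limma. The 3 fetal genes of smallest p in the first list were POLE and POLA1, polymerase subunits, with log2 changes of -0.30 (SE 0.14) and -0.20 (SE 0.093), and RFC2, of the clamp loader, with 0.16 (SE 0.090). In the second they were SPC24 of the outer kinetochore with 0.58 (SE 0.25), HMMR with 0.30 (SE 0.13) and UBE2C, the ubiquitin-conjugating enzyme of the anaphase-promoting complex, with 0.39 (SE 0.17). In the third they were the CDK4 and CDK6 inhibitor CDKN2C with 0.31 (SE 0.16), the phosphatase CDKN3 with 0.35 (SE 0.19) and WEE1, a kinase that holds CDK1 inactive, with -0.18 (SE 0.10). None of these 9 passed.

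Within the fetal group, some cell division genes were highest in the libraries with the highest oocyte markers, 1 from each treatment group, and others were lowest in them. Over all genes the deviations of these 2 libraries from their group means correlated at 0.40. Fetal control 3 and fetal testosterone 3 were the 2 highest libraries for 12 of 85 members, 14.1% against 8.68% of all genes: AURKA, BUB1, CCNB2, CDC123, CDC25A, CDC25B, CDC37, CDC6, CDK5, MCM3, MCM7 and PLK1. With the other scaling it was 17 of 85 against 13.2%. CCNB2, chosen after its values were seen, had 32.4, 22.3 and 51.98 in the fetal controls and 25.9, 20.4 and 43.0 in the testosterone fetuses. CDC25B had 22.9, 22.7 and 32.4 in the fetal controls and 28.3, 24.8 and 35.9 in the testosterone fetuses. As given above, PLK1 and AURKA had the same order, with the libraries numbered 3 on top in each group. The 5 listed oocyte markers summed to 574, 379 and 1568 in the fetal controls and 443, 610.5 and 1133 in the testosterone fetuses, highest in the same pair of libraries, and the part of oocytes in these values was not tested.

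The opposite order was seen for 13 of 85 members, 15.3% against 15.4% of all genes, where the libraries numbered 3 were the 2 lowest. Among them were CCNE2, with 4.99, 6.78 and 2.53 in the fetal controls and 4.62, 4.13 and 3.17 in the testosterone fetuses, and CCNA1, given above. With the other scaling it was 10 of 85 against 11.1%. The 22 listed germ cell and meiosis markers did not share that order: they summed to 1058, 1462 and 928 in the controls and 1064, 686 and 836 in the testosterone fetuses, lowest in testosterone 2. All 22 of these markers had a lower mean with testosterone and 0 passed with limma, their smallest adjusted p being 0.338.

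**Figure D4:**
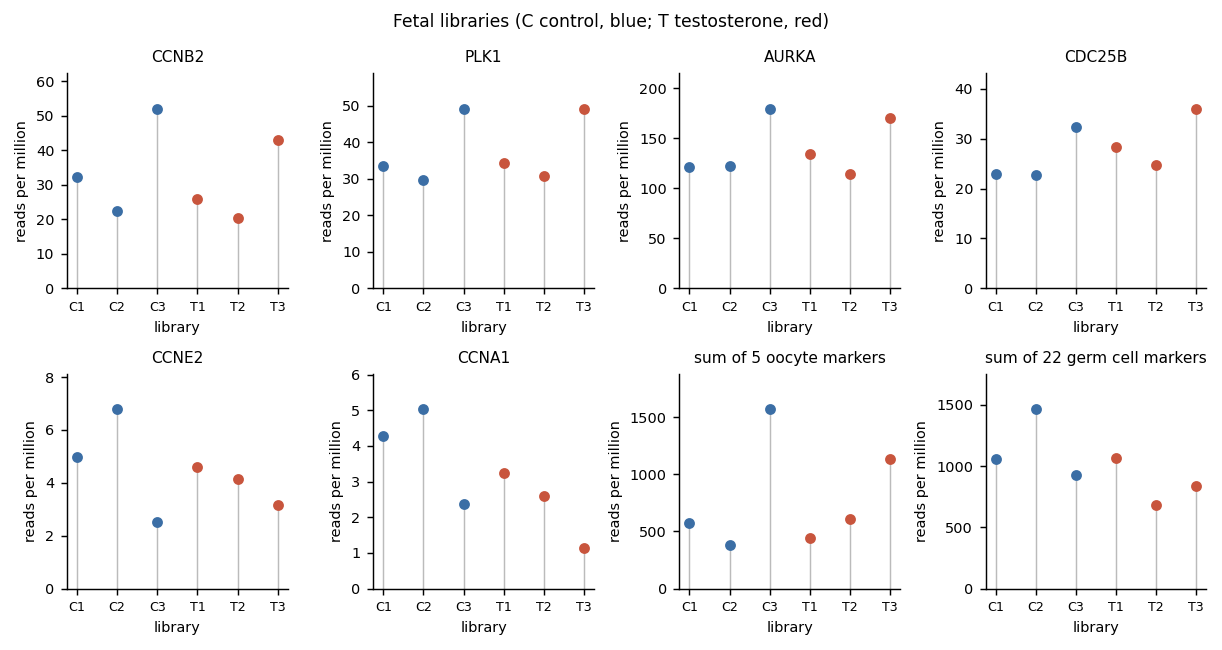
RPM in the 6 fetal libraries for 6 cell division genes, the sum of 5 oocyte markers and the sum of 22 germ cell and meiosis markers; each point is 1 library, with controls in blue and testosterone in red. CCNB2, PLK1, AURKA and CDC25B are highest in C3 and T3 like the oocyte sum, CCNE2 and CCNA1 are lowest in them, and the germ cell sum is lowest in T2.

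Adult ovaries differed from one another in cell division genes more widely than fetal ones, and whether other genes did so too was not tested. Relative to the mean of its age, and with median-ratio scaling, the median log2 level of the 35 periodic members was within -0.12 and 0.089 in every fetal library. In the adult controls it was -0.80, 0.51, -0.50 and 0.92, and in the testosterone adults 0.16, -0.15, -0.28 and 0.46. The controls thus spanned a wider range than the testosterone animals, with both extremes among them. The widest adult ranges belonged to CENPK, E2F8, CENPN, AURKB and CDK7. AURKB had 1.78, 11.5, 2.84 and 18.9 in the adult controls and 6.29, 3.24, 3.10 and 9.91 in the testosterone adults, CENPN had 0.996, 5.70, 1.68 and 10.9 in the adult controls and 4.94, 2.02, 2.51 and 6.26 in the testosterone adults, and CDK7 had 7.29, 42.9, 31.9 and 73.5 in the adult controls and 28.4, 56.4, 42.1 and 35.7 in the testosterone adults. Control 4 was the lowest library for CENPK, CENPN, AURKB and CDK7, while testosterone 5 was the lowest for E2F8, and control 7 was the highest for all 5.

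Control 7 was the highest adult library for 49 of 85 members, 57.6% against 26.3% of all genes, and for 27 of the 35 periodic ones. Controls 7 and 5 together were the 2 highest for 27 members, against 9.63% of all genes. The 12 listed granulosa cell markers summed to 964, 2949, 1627 and 2192 in the controls and 1154, 1524, 1755 and 1256 in the testosterone adults, with controls 5 and 7 highest. Other libraries differed in order: testosterone 7 had a periodic median of 0.46 with a sum of 1256, and control 6 had -0.50 with 1627. Control 4 was the lowest for 50 of 85 members, 58.8% against 39.9% of all genes, or 32 of 85 against 21.2% with the other scaling. It had the lowest granulosa cell sum and the highest smooth muscle and stromal fibroblast sums, 26819 and 66523. The part of these cell types in the values was not tested.

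The 3 adult libraries high in OXT were the 3 lowest for CCND2, CDK19, CENPB, MCM3, MCM4 and MCM5, 6 of 85 members against 10.3% of all genes. They were the 3 highest for AURKAIP1, CCNA1, CCNE1, CDC42 and PLK3, 5 of 85 against 13.3%. With the other scaling these counts were 10 against 11.5% and 5 against 14.1%. For CCND2 the 3 libraries held 20.4 to 25.7 RPM and the other 5 held 42.8 to 78.3, as the values above show. PLK3 had 13.9, 14.3, 24.03 and 10.6 in the adult controls and 36.98, 12.3, 13.8 and 20.98 in the testosterone adults, with testosterone 4, control 6 and testosterone 7 on top. CDKN1A, the CDK inhibitor p21 and chosen after its values were seen, had 10.7, 80.3, 209.8 and 26.9 in the adult controls and 224, 32.4, 39.97 and 116 in the testosterone adults, highest in the same 3. Over all adult libraries these are 1 control and 2 testosterone animals, an uneven split between the groups. Each adult table alone holds 1 of them per group, control 6 with testosterone 4 in the first and control 6 with testosterone 7 in the second. With these 3 libraries left out of the joined adult libraries, 0 of 85 members passed with limma, while of 15541 genes 1 passed as higher and 0 as lower. At an unadjusted p under 0.05, 1 member was higher and 1 lower, against 314 of 15541 genes in either direction.

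**Figure D5:**
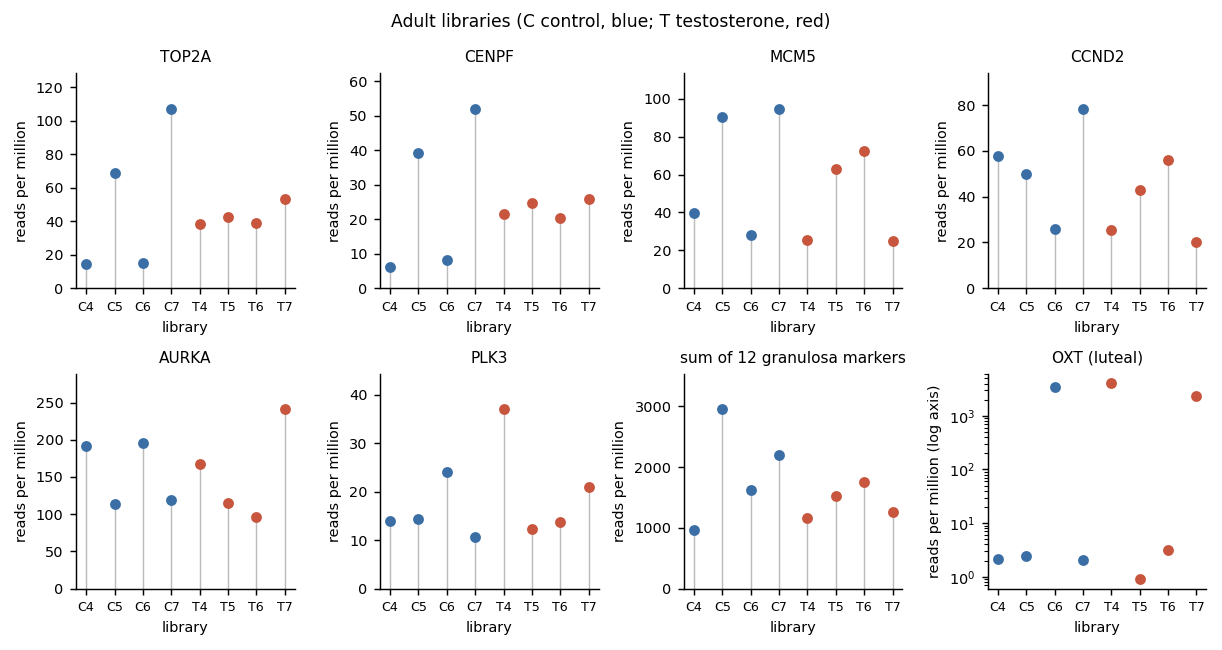
RPM in the 8 adult libraries for 6 cell division genes, the sum of 12 granulosa cell markers and the luteal gene OXT (log axis); each point is 1 library, with controls in blue and testosterone in red. TOP2A and CENPF are highest in C7 and C5, as is the granulosa sum, but other libraries such as T7 and C6 differ in order. MCM5 and CCND2 are lowest in C6, T4 and T7, where OXT is highest, and PLK3 is highest there.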

How the data were processed

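RNA of 14 whole ovaries was made into libraries with a kit that does not mark strand and read as 150-base pairs, per the labels' protocols, so overlapping antisense genes are not separated. The submitters' processing notes name Trimmomatic 0.36 and STAR 2.5.2b. Which program counted reads, and on which build, is not given in the sources used here. What the authors deposited is a signal per gene and library, a normalized count equal to reads divided by a size factor, in 1 fetal and 2 adult tables. The deposited tables also hold the authors' log2 fold changes and p-values. In every library 100% of values were whole multiples of 1 step within 0.01, which gave back the reads.

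Each table was fitted on its own with limma 3.58.1 (R 4.3.3, with a trend) as the main test, on log2(value + 1), keeping means of 10 or more. Benjamini-Hochberg adjustment ran over all genes, and the threshold was 0.05. A log2 change on that scale understates changes of low genes. DESeq2 1.42.0 and edgeR 4.0.16 were run on the recovered reads. Levels at 2 ages are RPM with no test. The difference in the testosterone effect between ages used the moderated SEs of both fits. Scripts were tested on simulated data. Alternatives were other filters, pseudocounts, scalings, tests and models of variance, a block for the sample number, the joined adult libraries, and each library left out. The block used only samples whose number was in both groups of a table. The members, roles, marker lists and named genes were chosen with earlier results of these data known. Named genes are a set of 24 core genes, of which 17 were listed, the 5 of smallest p per direction and comparison, and the 5 at each end of the age ratio and of widest adult range; other genes with values are given to complete a role or are marked in the text as chosen after seeing them. Of the 3 genes of smallest p in each list, which the rule also names, those of the fetal table and the pathway lists are given.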

Additional observations from a re-analysis of the deposited data

Results flagged for a closer look

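CDK6 in adult control 5, at 5.58 RPM, stood far from the other 3 adult controls, which held 2.42 to 2.75. The gap to the nearest control was 0.896 of the range of the group, above Dixon's 95% limit for 4 samples. Of 76 groups of named members checked this was the 1 that passed, and chance passes about 1 in 20. Testosterone 5 and 6 were higher still, so the value lies within the range of all adult libraries.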

How the results depend on the processing

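The count of members called was 0 in the fetal table and in both adult tables under every alternative run, except that DESeq2 called 1 fetal member, PLK2 (log2 change -0.60). Leaving out each library in turn gave 0 to 0 calls in each table. The count of members with all fetal libraries above all adult ones was 40, against 20.8% of all genes. It fell to 22 with median-ratio size factors, against 12.2%. It ran from 40 to 49 when each library was left out, which can only keep or raise it. No share of all genes was set beside that range, so it has no background. When only controls were compared, a choice made after the data were seen, the count was 47, against a share of 32.4% of all genes. For 7 of 44 single-gene results, 14 alternative values changed sign. Leaving out 1 fetal library gave ranges of -0.012 to 0.12 for MCM5, -0.23 to 0.0032 for CCND2, -0.18 to 0.015 for CDK1, -0.13 to 0.23 for AURKA, -0.14 to 0.30 for PLK1 and -0.16 to 0.034 for BUB1. In the second adult table CDK7 ran from -0.14 to 1.28 without 1 library. It was -0.29 with the sample number as a block, a fit limited to the numbers found in both groups, 6 and 7. That fit lacked control 4 and testosterone 5, so a change of model cannot be told apart there from the loss of these libraries. The median change of members ran from -0.040 to 0.022 in the fetal table, from -0.052 without control 4 to 0.27 without control 5 in the first adult table, and from -0.083 without control 4 to 0.29 without control 7 in the second. The labels link samples only by a number, and whether same-numbered animals share more is not stated. Deviations of same-numbered samples correlated at 0.13, 0.0093 and 0.40 in the fetus. They correlated at -0.15, 0.33 and -0.48 in the first adult table and at -0.46 and -0.34 in the second. The replicate block called 0 members in each table, and over all fetal genes it called 10 in place of 3. With 3 animals per group and adult SEs near 0.4, adult changes of small size were not detectable. Larger ones also failed to pass, up to the log2 change of 0.87 of CDK6 in the second adult table.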
